A study of Mus musculus with 8 samples.

Results

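The microRNAs mmu-miR-146a and mmu-miR-146b are 2 of the 611 mouse miRNAs on an Agilent single-colour miRNA array, and were taken by their names in the array files. The pair was chosen by its measured levels over the tissues on these same arrays, so the tissue differences of either miRNA are given below as a description and carry no test. The 8 arrays held RNA from tissue cut out under the microscope from mammary glands. The donors were female β-actin-GFP reporter mice on the FVB/n background, aged 5 weeks. Distal stroma was hybridised on 3 arrays, mature ducts on 2 arrays and terminal end buds (TEBs), the growing tips of the ducts, on 3 arrays. All 3 tissues carried the reporter and no treatment, and the β-actin promoter is active in most cell types, so GFP marks where tissue was cut and not a purified cell type. The number of animals behind an array is not given in the sources used here, and the spread between arrays of a tissue may therefore be partly technical. Each tissue is a mixture of cells, and fewer cells of a type and less miRNA per cell cannot be told apart.

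A miRNA guides the Argonaute complex to messenger RNAs by pairing through its seed, the bases near its 5′ end, and lowers their translation and stability. The miR-146 family is best known as a brake on inflammation. Its targets TRAF6 and IRAK1 carry signals from Toll-like and interleukin-1 receptors to the transcription factor NF-κB, and NF-κB in turn switches on miR-146a. In the mammary gland miR-146b has been linked to the maintenance of alveolar progenitor cells, and in breast cancer cell lines both miRNAs have been used to dampen NF-κB activity and migration.

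The sequences are shown because the pair shares its seed and differs at so few bases that the probes for one could also bind the other, whose part in the signals was not tested. They are RefSeq entries (build GRCm38.p6), written 5′ to 3′ with the seed, bases 2 to 8, in capitals. The array uses older names without an arm suffix, which were matched here to the 5p entries, and its miR-146b* was matched to the 3p entry of the same hairpin.
mmu-miR-146a-5p: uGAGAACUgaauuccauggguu
mmu-miR-146b-5p: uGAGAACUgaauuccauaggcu
mmu-miR-146b-3p: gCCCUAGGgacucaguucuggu
The seed GAGAACU was found in 2 of the 1679 mature mouse miRNAs of the RefSeq table, which are these 5p entries. They were identical at 20 of 22 positions, and counted from the 5′ end the differences from miR-146a-5p to miR-146b-5p were G18A and U21C. Both lie outside the seed.

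The pair comes from separate loci. The miR-146a-5p sequence lies on the minus strand at chr11:43374435-43374456, inside a hairpin of 65 bases that overlaps no other gene of the RefSeq table. The nearest protein-coding genes are Atp10b on one side and Pttg1 on the other. The miR-146b-5p sequence lies on the plus strand at chr19:46342790-46342811, inside a hairpin of 109 bases within the span of the long non-coding RNA gene Gm36493. Its nearest protein-coding neighbours are Cuedc2 and Mfsd13a.

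The arrays gave a total signal for each miRNA in arbitrary intensity units, with an error from the scanner software and a flag for detection. Between 23.2% and 27.7% of the 611 mouse miRNAs were detected on an array. Signals were scaled so that each array had the same 75th percentile over the 108 miRNAs detected on all 8 arrays, with factors of 0.75 to 1.36, and the duct arrays were scaled down. No scaled signal of miR-146a or miR-146b fell under the floor of 1 that was set before taking log2. Epithelial miRNAs set stroma apart from ducts and TEBs, and did not mark ducts off from TEBs as a list. Of 10 epithelial miRNAs on the array, 0 were detected on any stroma array and 8 on every duct and TEB array, the miR-200 family among them. These 8 entered the test through ducts and TEBs alone, so their difference from stroma is given as a description. The summed scaled signal of this list ran from 2157.5 to 2372.7 units in ducts and from 2059.4 to 2192.9 units in TEBs, with overlap. Between TEBs and ducts, 2 of the 8 were called higher in TEBs, 1 was called higher in ducts and 5 were not called. Over all miRNAs tested the shares were 11.4% and 13.2% (limma, adjusted p under 0.05). A list of 5 fibroblast and smooth muscle miRNAs did not mark the stroma. Of its 4 tested members 3 (miR-199a-5p, miR-199a-3p and miR-214) were higher in TEBs than in stroma and 1 (miR-143) was lower (limma, adjusted p from 0.00058 to 0.039). Over all 167 miRNAs tested 20.4% were called higher in TEBs and 44.3% higher in stroma. The call of miR-199a-3p held in 2 of the 8 fits that each left out 1 array. It was also lost with no detection filter and when only the 2 tissues compared were fitted. The call of miR-143 was lost with scaling to all mouse miRNAs, no scaling, quantile normalization and no detection filter.

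miR-146b was brightest in ducts, intermediate in TEBs and lowest in stroma. On the duct arrays its scaled signal was 89.4 ± 12.3 and 103.1 ± 11.5 units (scanner error). On the TEB arrays it was 36.0 ± 5.4, 41.4 ± 6.0 and 47.1 ± 7.3 units. On the stroma arrays it was 11.99 ± 6.7, 10.01 ± 8.6 and 46.9 ± 8.2 units. Both duct arrays lay above all others, while 1 stroma array, replicate 3, sat among the TEBs and the other 2 lay below them. The signal was flagged as detected on every array but stroma replicate 2.

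**Figure D1:**
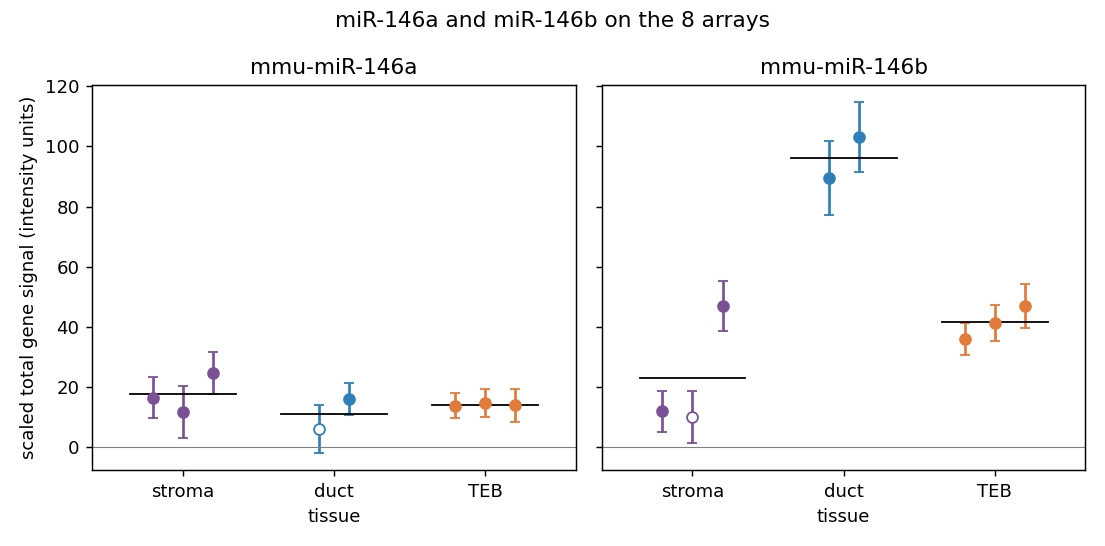
Scaled total gene signal (intensity units, linear axis from below 0) of mmu-miR-146a and mmu-miR-146b on each array, by tissue. Points are arrays with the error given by the scanner software, open points were not flagged as detected, and black lines are tissue means. The duct arrays of miR-146b, at 89.4 and 103.1 units, stand above all others, and the miR-146a signals lie between 6.2 and 24.8 units in every tissue.

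The tissue means of miR-146b were 96.3 ± 9.7 units in ducts (SD, n = 2), 41.5 ± 5.5 in TEBs (SD, n = 3) and 22.98 ± 20.8 in stroma (SD, n = 3). On the log2 scale the SD was 0.15 in ducts, 0.19 in TEBs and 1.22 in stroma, and the standard errors below pool all 3 tissues. On that scale ducts exceeded TEBs by 1.22 (TEBs minus ducts -1.22, standard error 0.72), or 2.33-fold. The duct and TEB arrays did not overlap, as also held in that direction for 72 of the 167 miRNAs tested (43.1%), so the lack of overlap is common here. Ducts exceeded stroma by 2.43 (standard error 0.72), or 5.40-fold, again without overlap, as for 33 of the 167 miRNAs (19.8%). With normexp background correction, which added an offset of 50 units to every signal before scaling, that difference was 0.57. TEBs exceeded stroma by 1.21 (standard error 0.64), or 2.32-fold, with overlapping arrays, whereas every TEB array lay above every stroma array for 39 miRNAs (23.4%). In the order duct, TEB, stroma, the neighbours TEB and stroma did not separate beyond the spread of the stroma arrays after scaling. Before scaling, every TEB array (35.8 to 45.0 units) lay above every stroma array (8.3 to 34.5 units). These shares are a background, and the pair was chosen from the same contrasts, so nothing is read from them.

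The stroma value of miR-146b rested on a single array. Without stroma replicate 3, the log2 difference of TEBs over stroma was 1.91 and that of ducts over stroma was 3.13. This array had the largest scaling factor, 1.36, and the fewest negative signals of the stroma arrays, 340 of 611 against 385 and 391. Its epithelial list summed to -32.4 units, against -77.8 and -91.7 on the other 2 stroma arrays, with 0 of the 10 miRNAs detected on each. Its red cell list (miR-144 and miR-451) summed to 1988.3 units, below 3485.9 and 3577.4. Its skeletal muscle list summed to 41.3 units with 2 of 4 miRNAs detected, against 1.2 and 1.6 with 0 detected, and its fibroblast and smooth muscle list to 2962.9, above 2478.6 and 2466.1. The part of depth or of any of these cell types in the miR-146b signal of that array was not tested.

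miR-146a was weak everywhere and showed no order of the tissues. On the stroma arrays its scaled signal was 16.6 ± 6.8, 11.9 ± 8.7 and 24.8 ± 7.1 units (scanner error). On the duct arrays it was 6.2 ± 7.9 and 16.2 ± 5.3 units. On the TEB arrays it was 13.9 ± 4.0, 14.7 ± 4.6 and 13.98 ± 5.5 units. The tissues overlapped throughout, and duct replicate 1 was the only array on which miR-146a was not flagged as detected. Its signal there was smaller than its own error.

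The means of miR-146a were 17.7 ± 6.5 units in stroma (SD, n = 3), 11.2 ± 7.0 in ducts (SD, n = 2) and 14.2 ± 0.43 in TEBs (SD, n = 3). The SD of the TEB arrays was smaller than the scanner error of any one of them. The log2 difference was -0.26 for TEBs minus stroma (standard error 0.45), -0.76 for ducts minus stroma (standard error 0.50) and 0.51 for TEBs minus ducts (standard error 0.50). In signal these were 1.19-fold and 1.70-fold higher in stroma and 1.42-fold higher in TEBs, and the arrays overlapped in each comparison. The duct value depended on which of the 2 duct arrays was kept. Without duct replicate 1 the difference of ducts and stroma was 0.15 and that of TEBs and ducts -0.40, and without duct replicate 2 they were -1.45 and 1.20. A tissue difference of miR-146a was not tested, and these standard errors leave its size and direction unsettled.

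miR-146a and miR-146b had different profiles over the tissues, which is also given as a description with no test. The difference in log2 scaled signal between miR-146b and miR-146a was taken on each array, where a scaling factor cancels. Its absolute size also depends on the probes and is not read as a difference in amount. It was -0.47, -0.25 and 0.92 on the stroma arrays, 1.37, 1.495 and 1.75 on the TEB arrays, and 3.85 and 2.67 on the duct arrays. The pair was chosen on these levels, so nothing is read from the tissues not overlapping, with means of 0.07 ± 0.75 in stroma (SD, n = 3), 1.54 ± 0.19 in TEBs (SD, n = 3) and 3.26 ± 0.83 in ducts (SD, n = 2). The change of miR-146b thus exceeded that of miR-146a by 3.19 between stroma and ducts and by 1.47 between stroma and TEBs on the log2 scale. Between ducts and TEBs the change of miR-146b was lower by 1.72 (-1.72). With normexp these values were 1.01, 0.37 and -0.64, and with 16 added in place of the floor 1.97, 0.82 and -1.14. The higher duct value, 3.85, came from duct replicate 1, where miR-146a was not detected.

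**Figure D2:**
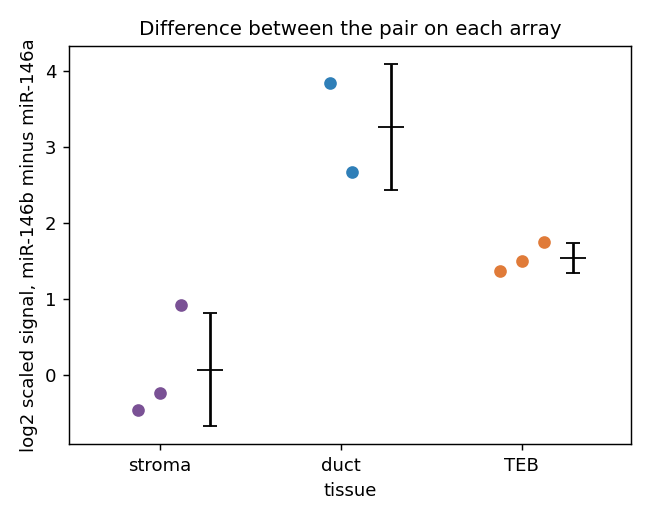
Log2 scaled signal of miR-146b minus that of miR-146a on each array (points), by tissue, with the mean and SD of each tissue in black (n = 3, 2 and 3). The stroma arrays lie from -0.47 to 0.92, the TEB arrays from 1.37 to 1.75 and the duct arrays from 2.67 to 3.85, without overlap.

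The other strand of the miR-146b hairpin, mmu-miR-146b*, was not detected on any of the 8 arrays. Its scaled signal was negative on each, from -22.0 to -15.1 units in stroma, from -20.6 to -11.7 in ducts and from -12.4 to -7.8 in TEBs. It gave no level to set beside that of miR-146b, in ducts or elsewhere.

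Scaling moves every miRNA of an array together, so the pair was also read against the median of the 167 miRNAs tested. That median difference was -0.28 for TEBs minus stroma, -0.09 for ducts minus stroma and -0.10 for TEBs minus ducts. Relative to it, miR-146b differed by 1.49, 2.52 and -1.11, and miR-146a by 0.02, -0.67 and 0.61, on the log2 scale. Under scaling to all mouse miRNAs, no scaling, quantile normalization and the authors' normalized table, the medians ran from -0.07 to 0.12, from -0.25 to 0.50 and from -0.47 to 0.45. The values of miR-146b relative to them ran from 1.09 to 1.499, from 2.00 to 2.54 and from -1.11 to -0.86. A single factor per array moves a miRNA and the median nearly alike. Of these settings, only quantile normalization and the authors' table could therefore move the relative values much. Without subtracting the median, the order of miR-146b over the tissues also did not change with these scalings. Normexp background correction, with its offset of 50 units, turned the difference of miR-146b between TEBs and stroma to -0.029. That offset was larger than any stroma or TEB signal of miR-146b before scaling. The difference of miR-146a between TEBs and stroma changed sign, from -0.26 to 0.14 with scaling to all mouse miRNAs, and to 0.06 and 0.08 with quantile normalization and the authors' table.

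**Figure D3:**
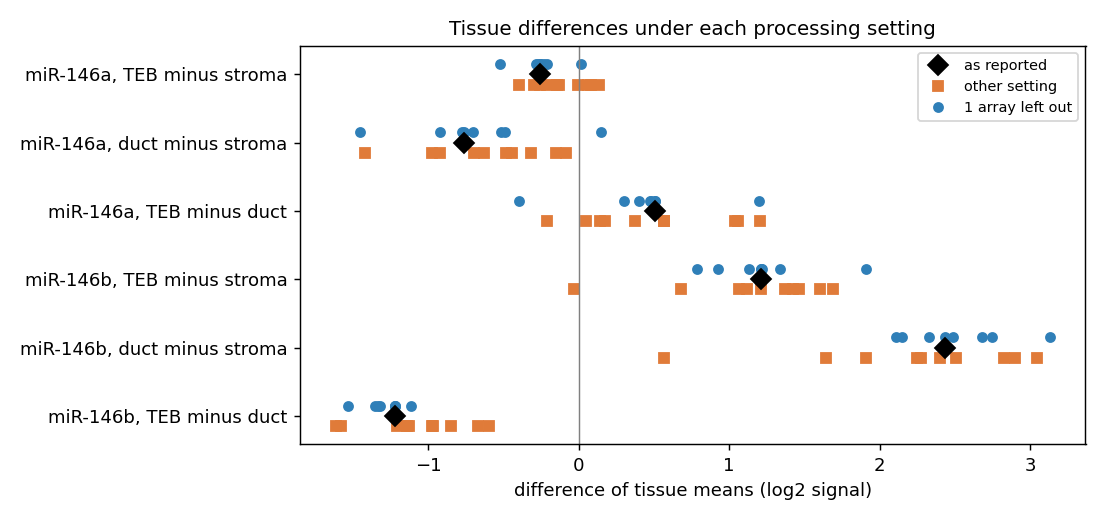
Differences of tissue means of miR-146a and miR-146b (log2 signal) in the comparisons named at the left. Diamonds are the reported values, blue points leave out 1 array each and orange squares are other processing settings. The values of miR-146b for TEBs minus ducts run from -1.62 to -0.60, all below 0, while those of miR-146a for ducts minus stroma run from -1.45 to 0.15.

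Likeness of pattern was measured as the root mean square difference, over the 8 arrays, of log2 signals centred on their own mean, so that smaller is more alike. Of the 166 other miRNAs tested, the nearest to miR-146a were miR-532-5p at 0.25, miR-574-5p at 0.33, miR-98 at 0.33, miR-423-5p at 0.38 and miR-34b-5p at 0.41. Of these miR-98, a let-7 family member, lay at 39.6 to 71.6 scaled units and miR-532-5p at 8.3 to 22.6, and none passed the test in any comparison (limma, adjusted p from 0.066 to 0.86). The nearest to miR-146b were miR-1895 at 0.75, miR-218 at 0.78, miR-199a-5p at 0.88, miR-322 at 0.92 and miR-214 at 0.95. The largest difference of ducts over stroma among these 5 was 0.73 on the log2 scale, for miR-199a-5p, against 2.43 for miR-146b. Of the same 5, miR-199a-5p, miR-322 and miR-214 were called higher in TEBs and in ducts than in stroma (limma, adjusted p from 0.00058 to 0.017). Over all miRNAs tested 20.4% and 9.58% were called so. With scaling to all mouse miRNAs, the duct calls of miR-199a-5p and miR-214 were lost. The 5 were picked for likeness to miR-146b, so their calls are no support for its pattern. miR-146b was number 136 of 166 in likeness to miR-146a, at 1.33, where the median of the others was 0.67. From the side of miR-146b, miR-146a was number 91, where that median was 1.31. The pair was chosen on these same levels, so nothing is read from the ranks. The points of a distance share tissues and libraries, and for miR-146a leaving out duct replicate 1 kept 1 of its 5 nearest.

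Other miRNAs tied to NF-κB were read from a list of 20, of which 14 were tested. The miRNAs known as induced by Toll-like receptor or NF-κB signalling were in part not detected. miR-155, the companion of miR-146a in the inflammatory response, had negative scaled signals throughout, from -19.8 to -0.84 units, and was detected on none of the arrays. Neither were miR-9, miR-147, miR-212 and miR-222. miR-21, an abundant miRNA that restrains the apoptosis regulator PDCD4, lay from 4889 to 5491 units in stroma, 5082 to 6371 in ducts and 5061 to 7918 in TEBs, and did not pass the test in any comparison (limma, adjusted p from 0.12 to 0.74). miR-125a-5p did not pass either, at 119.0 to 152.2 units over all arrays. miR-132, a miRNA also induced by the factor CREB, was detected on all 3 TEB arrays at 11.99 to 19.5 units and on no other. It was at least 2.18-fold higher in TEBs than in stroma and at least 2.96-fold higher than in ducts. These bounds set the mean TEB signal against the weakest signals flagged as detected on the dim arrays. miR-132 entered the test through TEBs alone, as did miR-31 and miR-221. Such a filter favours a difference from the other tissues, so their calls are no support for one.

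Of the same list, miRNAs known to target a component of NF-κB signalling or an input to it included miRNAs higher and lower in TEBs. miR-31, which targets the kinase NIK, was detected on the TEB arrays alone and was at least 1.97-fold higher there than in stroma. miR-10a, a regulator of the kinase MAP3K7, was lower in TEBs than in stroma, by a log2 difference of -0.69 (standard error 0.08, limma, adjusted p = 0.00064), and lower than in ducts by one of -0.50 (limma, adjusted p = 0.015). miR-23b, which targets the TAB adaptors, was lower in TEBs than in ducts by a log2 difference of -0.61 (limma, adjusted p = 0.024). The calls of miR-10a and miR-23b between TEBs and ducts were lost without duct replicate 2 or TEB replicate 2, and that of miR-23b also without duct replicate 1. Both were also lost with quantile normalization and the replicate block, and with scaling to all mouse miRNAs, where the difference of miR-10a turned to 0.05 and that of miR-23b was -0.06 (limma, adjusted p = 0.88 for each). That of miR-23b was lost with no detection filter too. The call of miR-10a between TEBs and stroma was lost with scaling to all mouse miRNAs, at -0.30 (limma, adjusted p = 0.42), and with no scaling, at -0.45 (limma, adjusted p = 0.062). miR-16, miR-125b-5p and let-7i did not pass in any comparison, and miR-181b was not detected on any array.

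Between TEBs and stroma 5 of the 14 were higher in TEBs and 3 higher in stroma, beside 20.4% and 44.3% of all 167 miRNAs tested (limma, adjusted p under 0.05). miR-132, miR-31, miR-221, miR-301a and miR-199a-3p were the 5, and miR-223, miR-15a and miR-10a the 3. Of these, miR-132, miR-31 and miR-221 entered the test through TEBs alone, so their calls add no support to the counts higher in TEBs. Of the 8 fits that each left out 1 array, the call held in 4 for miR-221 and for miR-301a, in 3 for miR-15a, in 2 for miR-199a-3p and in 7 for miR-223. Without stroma replicate 2, 3 calls were left. With scaling to all mouse miRNAs, the difference of miR-15a turned from -0.32 to 0.07 (limma, adjusted p = 0.86). Between ducts and stroma 0 of the 14 passed in limma, with 5 at an unadjusted p under 0.05, beside 9.58% higher in ducts and 12% higher in stroma over all miRNAs. Between TEBs and ducts 2 were higher in TEBs (miR-132 and miR-31, with the same limit) and 2 in ducts (miR-10a and miR-23b), beside 11.4% and 13.2%. The median log2 difference of the 14, with miR-132, miR-31 and miR-221 included, was 0.03, 0.15 and 0.03 in the 3 comparisons. Over all miRNAs tested it was -0.28, -0.09 and -0.10. miR-223 and miR-155 also stand in the leukocyte list, and miR-199a-3p in the fibroblast list. The split of all calls turned with the scaling. The share higher in the tissue named first was 31.5%, 44.4% and 46.3% as reported, 57.6%, 57.9% and 80% with scaling to all mouse miRNAs, and 50%, 92.9% and 16% with no scaling. With quantile normalization it was 71.4% for TEBs over ducts.

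**Figure D4:**
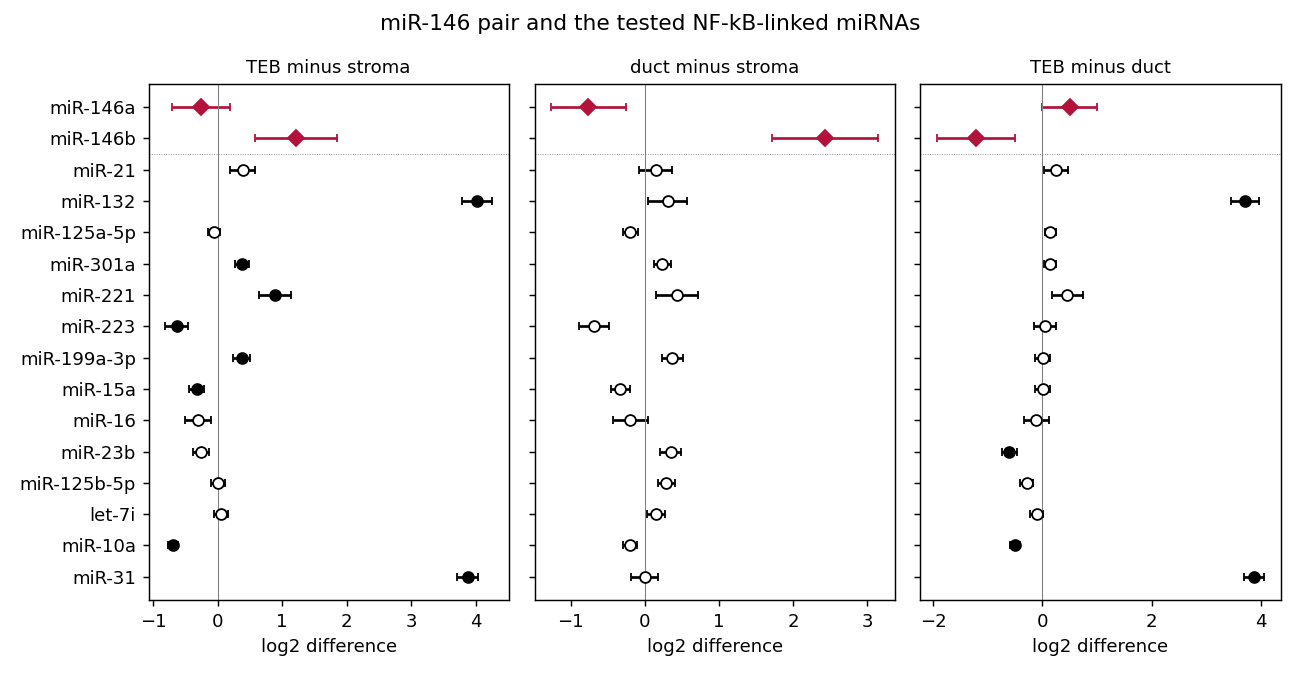
Log2 differences of tissue means with standard errors for miR-146a and miR-146b (diamonds, described without a test) and the 14 tested NF-κB-linked miRNAs (circles, filled where the adjusted p from limma is under 0.05). Axes differ between panels, and the differences of miR-132 and miR-31 against tissues where they were not detected depend on the floor. In the middle panel none of the circles is filled, and miR-146b stands at 2.43.

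miR-146a is also known from blood-derived immune cells, so 6 leukocyte miRNAs were read beside it. Their summed scaled signal was 665.9 to 831.8 units on the stroma arrays, 462.6 and 476.0 on the duct arrays and 441.8 to 593.7 on the TEB arrays. Before scaling the sums overlapped, at 548.2 to 692.9 units in stroma, 576.6 and 634.8 in ducts and 438.6 to 627.4 in TEBs. miR-223, a miRNA of myeloid cells, was 506.4 to 545.5 units in stroma and 255.4 to 397.1 in TEBs, a log2 difference of TEBs minus stroma of -0.64 (standard error 0.18, limma, adjusted p = 0.020). miR-142-3p and miR-342-3p were detected on all arrays and did not pass in any comparison, and miR-142-5p, miR-150 and miR-155 were not detected. In all 1 of the 3 tested leukocyte miRNAs was called between TEBs and stroma, beside 44.3% of all miRNAs higher in stroma, so the share is near the background. In limma 0 of 3 were called in either of the comparisons with ducts, beside 9.58% to 13.2% of all miRNAs in a direction, with 1 against stroma and 0 against TEBs at an unadjusted p under 0.05. The call of miR-223 was lost without stroma replicate 2, with scaling to all mouse miRNAs, with no scaling and with no detection filter. The part of leukocytes in the miR-146a or miR-146b signal was not tested.

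The tested vessel and red cell miRNAs were lower in TEBs than in stroma, as called for 44.3% of all 167 miRNAs tested. Muscle miRNAs did not pass the test. miR-126-3p, a miRNA of vessel lining cells, was lower in TEBs than in stroma by a log2 difference of -1.20 (limma, adjusted p = 0.00096). It was also lower in ducts than in stroma, by one of -0.75 (limma, adjusted p = 0.022), as called for 12% of all miRNAs. The other vessel miRNA of the list, miR-126-5p, was not detected on any array. The red cell miRNAs miR-144 and miR-451 were both lower in TEBs than in stroma (limma, adjusted p = 0.022 and adjusted p = 0.027). The red cell calls were lost with scaling to all mouse miRNAs, no scaling, quantile normalization and no detection filter. Those of miR-126-3p were lost with scaling to all mouse miRNAs (limma, adjusted p = 0.051 for TEBs and 0.13 for ducts). The call in ducts was also lost with no scaling and with no detection filter. The skeletal muscle list summed to 1.2 to 41.3 units in stroma, 27.5 and 169.9 in ducts and 7.5 to 81.1 in TEBs, and 0 of its 2 tested members passed in limma in any comparison, with 1 at an unadjusted p under 0.05 between TEBs and ducts and 0 in the others. The part of these cell types in the miR-146b signal was not tested.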

How the data were processed

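Total RNA was labelled with Cy3 and hybridised to the Agilent SurePrint Mouse miRNA Array V2, and per the labels the arrays were read with Agilent Feature Extraction 9.5.3. The authors deposited, per array, the total signal intensity of each miRNA summed over its probes, background-subtracted and not normalized between arrays, with its error and a detection flag. They also deposited a table of log2 values, whose columns share their upper values (maximum 16.51) as after quantile normalization, with the method not given in the sources used here. Its column medians were 1.65, 1.57 and 1.65 in stroma, 0.17 and 1.69 in ducts and 1.65, 1.64 and 1.64 in TEBs. It was used only as an alternative. Samples were grouped by their titles. The 39 viral probes and the control probes were left out. Signals were divided by the array's 75th percentile, taken over the 108 miRNAs flagged as detected throughout because most probes were not, and brought back to a common level. Signals under 1 were set to 1 and log2 was taken. The 167 miRNAs with a detection flag on all arrays of some tissue were fitted together with limma 3.58.1 in R 4.3.3, with Benjamini-Hochberg adjustment within each of the 3 comparisons at 0.05. Standard errors pool the spread between arrays over all 3 tissues. Those of miR-146a and miR-146b are unmoderated, and those of other miRNAs are moderated. The procedure was tested on simulated data. The members and lists were chosen with earlier results of these data known. Named are the members, their star strands, tested miRNAs of the NF-κB list, leukocyte miRNAs and the 5 nearest in pattern to each member. The files give no counts, so precision rests on the number of arrays. The arrays were fitted without pairing by the replicate numbers of the labels. Correlations of deviations from the tissue mean ran from -0.51 to 0.36 over 7 same-numbered pairs, with a mean of -0.10. Over 14 pairs with different numbers the mean was 0.05. Deviations within 2 or 3 arrays sum to 0, so these correlations cannot settle whether same-numbered arrays share animals.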

Additional observations from a re-analysis of the deposited data

How the results depend on the processing

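The difference of miR-146b between TEBs and ducts kept its direction in all 18 alternatives, from -1.62 to -0.60. The value with the replicate block, a pairing by label number, was -1.62. Leaving out a stroma array removes neither tissue compared and can act on this difference only through the scaling. Without stroma replicate 1 or 3 it stayed at the reported value, -1.22, and without stroma replicate 2 it was -1.32. All 18 lay within 0.78 of the reported value, the residual SD pooled over the 3 tissues. That is a wide measure here, since the log2 SD was 1.22 in stroma, 0.15 in ducts and 0.19 in TEBs. Normexp correction took the other 2 differences of miR-146b furthest, to -0.029 for TEBs minus stroma (a reversal) and 0.57 for ducts minus stroma, and adding 16 in place of the floor gave 1.65 for the latter. For miR-146a, ducts minus stroma was -0.15 with no scaling, and -1.42 and -0.085 within the slide rows, where TEBs minus ducts was 1.21 and -0.21. Leaving out 1 array gave ranges, in the order TEBs minus stroma, ducts minus stroma and TEBs minus ducts, of -0.52 to 0.02, -1.45 to 0.15 and -0.40 to 1.20 for miR-146a, and of 0.79 to 1.91, 2.11 to 3.13 and -1.53 to -1.12 for miR-146b. Without a duct array the remaining one is assumed to vary like the other tissues. The cause of these shifts was not tested.

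Of all miRNAs, the calls numbered 108 for TEBs against stroma, 36 for ducts against stroma and 41 for TEBs against ducts. Scaling to all mouse miRNAs gave 66 and 19 for the first pair of comparisons, no scaling 56 and 75 for the last pair, normexp 69 and 27 for that same pair. Between TEBs and ducts the replicate block gave 16 and no detection filter 18. Leaving out 1 array gave 82 to 114, 26 to 40 and 5 to 70, and for TEBs against ducts 10 without duct replicate 1, 5 without TEB replicate 2 and 70 without TEB replicate 1.

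NF-κB-linked calls between TEBs and stroma (8) were 4 with scaling to all mouse miRNAs or no detection filter, and 5 with no scaling or only miRNAs detected on all 8 arrays. Between ducts and stroma (0) they were 6 with no scaling, 3 with quantile normalization, 2 with 16 added, 4 with normexp, and 1 with only miRNAs detected on all arrays, trend and robust estimation or the 2-tissue fit. Between TEBs and ducts (4) they were 2 with scaling to all mouse miRNAs, the replicate block or only miRNAs detected on all arrays. Leaving out 1 array gave 3 to 7, 0 to 4 (4 without TEB replicate 1) and 2 to 4. Against stroma, miR-10a was called in all 8 of these fits.

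Leukocyte calls between TEBs and stroma (1) were 0 with scaling to all mouse miRNAs, no scaling or no detection filter and 2 with normexp. Between ducts and stroma (0) they were 1 with quantile normalization, 16 added, only miRNAs detected on all arrays, trend and robust estimation or the 2-tissue fit, and 2 with normexp. Between TEBs and ducts (0) the count was 1 with quantile normalization. Leaving out 1 array gave 0 to 1, 0 to 1 and 0. Of the 5 nearest miRNAs, 3 were shared for either member with 16 added, and 1 to 5 (miR-146a) or 2 to 5 (miR-146b) without 1 array.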
